A study of Mus musculus with 9 samples.

Results

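The 10 genes described here encode the core and accessory subunits of polycomb repressive complex 2 (PRC2): Ezh2, Ezh1, Eed, Suz12, Rbbp4, Rbbp7, Mtf2, Phf1, Jarid2 and Aebp2. They were chosen by name from a table of 23420 gene symbols. All 10 were found, and all 10 were among the 10868 genes with enough signal to test. RNA sequencing covered 9 libraries, each from 100 Mac1+ cells sorted from C57BL/6 bone marrow. The DKOITD libraries (n = 4) had the genotype Ezh2 fl/fl, Runx1 fl/fl with Rag1Cre and Flt3 ITD/+. The ITD libraries (n = 2) were Ezh2 fl/fl, Runx1 fl/fl and Flt3 ITD/+ without Cre, and the WT libraries (n = 3) were Ezh2 fl/fl, Runx1 fl/fl with neither Cre nor ITD. All 3 groups therefore carried the floxed alleles of Ezh2 and Runx1. The Cre is driven by Rag1, a gene of lymphoid progenitors, whereas Mac1 marks myeloid cells, and the share of sorted cells in which the alleles were deleted is not stated. Separate animals per library are not stated in the labels, so each p-value reflects no more than the scatter among libraries.

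PRC2 places methyl groups on lysine 27 of histone H3, a mark of silenced genes. Ezh2 and its paralog Ezh1 are the alternative catalytic subunits, Eed reads the mark and stimulates the enzyme, Suz12 holds the complex together, and Rbbp4 and Rbbp7 are histone-binding proteins shared with other chromatin complexes. The polycomb-like proteins Phf1, Mtf2 and Phf19 define one form of the complex, and Jarid2 with Aebp2 defines the other. In blood, Ezh2 is known to be high in dividing progenitors and Ezh1 to persist in cells that no longer divide. Loss of PRC2 subunits is known from lymphoid and myeloid malignancies, including early T-cell precursor leukaemia, and the title of the series ties Ezh2 and Runx1 to leukaemia of early thymic progenitors.

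The promoters of 3 members are printed because the results below turn on them: Ezh2 is the floxed subunit, Phf1 the subunit that passed the test, and Suz12 the subunit nearest to it. Each runs 5′ to 3′ on the strand of its gene, from 250 bases before to 50 after the RefSeq start, in GRCm38.p6. Capitals mark matches, on either strand, to E2F words (TTTCCCGC, TTTGGCGC or TTTCGCGC) or to the RUNX word TGTGGT.
Ezh2 (chr6:47594981-47595280, minus strand): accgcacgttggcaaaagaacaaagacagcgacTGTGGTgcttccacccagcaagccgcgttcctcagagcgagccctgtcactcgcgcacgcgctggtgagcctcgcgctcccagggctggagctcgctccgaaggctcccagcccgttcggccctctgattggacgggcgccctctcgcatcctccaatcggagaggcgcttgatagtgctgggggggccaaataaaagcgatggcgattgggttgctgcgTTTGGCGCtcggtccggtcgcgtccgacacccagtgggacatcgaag
Suz12 (chr11:79992856-79993155, plus strand): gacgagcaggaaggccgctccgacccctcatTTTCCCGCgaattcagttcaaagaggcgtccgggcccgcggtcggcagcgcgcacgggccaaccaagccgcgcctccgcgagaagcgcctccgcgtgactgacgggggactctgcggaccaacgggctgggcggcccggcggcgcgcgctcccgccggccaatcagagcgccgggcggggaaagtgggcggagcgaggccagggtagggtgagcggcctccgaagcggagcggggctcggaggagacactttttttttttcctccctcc
Phf1 (chr17:26932877-26933176, plus strand): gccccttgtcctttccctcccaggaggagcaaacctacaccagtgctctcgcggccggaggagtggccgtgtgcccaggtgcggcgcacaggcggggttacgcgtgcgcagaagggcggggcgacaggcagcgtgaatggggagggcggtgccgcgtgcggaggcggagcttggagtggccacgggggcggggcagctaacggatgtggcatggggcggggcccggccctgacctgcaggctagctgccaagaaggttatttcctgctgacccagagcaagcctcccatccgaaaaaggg
Counted from the start, Ezh2 held an E2F word beginning at position 3 and the RUNX word at -217, and Suz12 held an E2F word at -219. RefSeq lists 14 promoters for the 10 members, since Jarid2, Aebp2 and Mtf2 have several starts, and these 2 of the 14 held an E2F word, against 1.84% of 32851 promoters. The RUNX word was in 3 of the 14, of Ezh2, Jarid2 and Rbbp4, and 16.8% of all promoters hold it, and the printed Phf1 window held neither word. A match is a description of letters, and binding was not measured.

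Whole reads recovered from the values ran from 2825728 (DKOITD 2) to 23124435 (WT 1) per library. WT 2 stood apart, its median correlation with the 8 others over all genes being 0.759, while each other library reached 0.815 to 0.881. The cell type markers moved with the groups. Between DKOITD and WT, 5.27% of all tested genes fell and 7.43% rose. Of 21 tested neutrophil maturation genes, 16 fell and none rose in DKOITD against WT, among them Mmp9, S100a9, Lcn2 and Padi4 at log2 differences of -4.90, -3.90, -3.54 and -3.26. The summed level of that list was 39700 to 277100 RPKM in DKOITD, 705300 to 752900 RPKM in ITD and 907900 to 1211000 RPKM in WT, and at most 1 of its genes was at 0 in any library. Of 20 tested dendritic genes 17 rose and 1 fell, with Cd209a, H2-Eb1, H2-Aa and H2-Ab1 up by log2 differences of 10.01, 8.28, 7.56 and 6.82, and the list summed to 9609 to 38630 RPKM in DKOITD, 4712 to 11920 RPKM in ITD and 679 to 1820 RPKM in WT. At most 2 of its 22 genes were at 0 in any DKOITD library, 7 in each ITD library and 7 to 14 in WT libraries. The filter on low values kept 20 of the 22, and a gene low outside DKOITD could enter the test only through DKOITD. Of 20 monocyte and macrophage genes 9 rose, led by Mrc1, Ms4a6b, Cd68 and Emr1 (log2 differences of 4.15, 3.05, 2.99 and 2.95), while their summed RPKM was 19560 to 36180 in DKOITD, 43990 to 46580 in ITD and 13790 to 33830 in WT, highest in ITD and overlapping between DKOITD and WT. The call of Cd68 was lost in 12 of 19 alternatives, that of Emr1 in 6 and that of S100a9 in 3, and those of the other marker genes named here in at most 1. The sort marker Itgam measured 10.98 to 39.0 RPKM in DKOITD, 78.1 to 97.3 RPKM in ITD and 90.2 to 143 RPKM in WT. Runx1, the other floxed gene, measured 10.4 to 17.6 RPKM in DKOITD, 4.42 RPKM in both ITD libraries and 3.53 to 13.02 RPKM in WT. These values do not measure how much of the floxed Runx1 allele was deleted. Flt3, which carries the ITD, measured 8.80 to 39.2 RPKM in DKOITD, with 0 and 10.4 RPKM in ITD, against 0 to 0.145 RPKM in WT. The part of these differences in the values of PRC2 genes was not tested, and fewer cells of a type and less RNA per cell cannot be told apart in these bulk libraries.

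Between DKOITD and WT, 1 of the 10 members passed the test (limma, Benjamini-Hochberg adjusted p under 0.05): Phf1, which fell. In the same comparison 12.7% of all tested genes passed, 5.27% as lower and 7.43% as higher, so 1 of 10 is near the background. The groups did not overlap for 3 members, Phf1 and Suz12 (lower) and Aebp2 (higher), against 25.0% of all genes. The median log2 difference of the members was -0.04, beside 0.17 for all genes tested. The catalytic subunit Ezh2, whose gene is floxed, had a log2 difference of 0.14 ± 0.69 (SE).

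**Figure D1:**
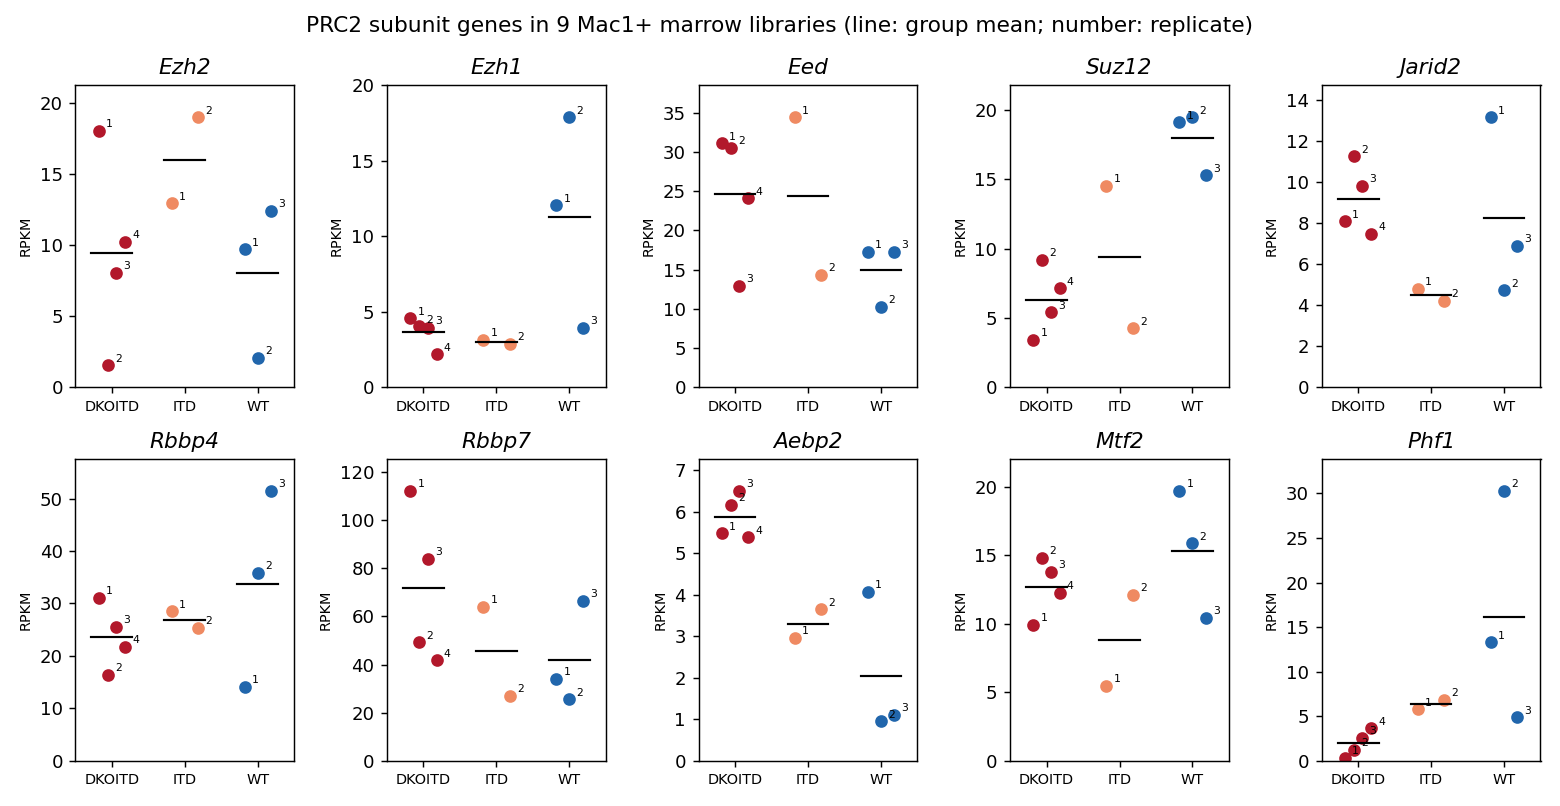
RPKM of the 10 PRC2 members in each library, by group (DKOITD, ITD, WT); points are libraries, numbers are replicate numbers and lines are group means, and each panel has its own axis from 0. Phf1 and Suz12 lie lower and Aebp2 higher in every DKOITD library than in any WT library, while Ezh2 is lowest in DKOITD 2 and WT 2.

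Ezh2 (chr6:47530139-47595341 in mm10) measured 18.1, 1.54, 8.04 and 10.2 RPKM across DKOITD 1 to 4, with 12.9 and 18.99 RPKM in ITD 1 and ITD 2, against 9.69, 2.05 and 12.4 RPKM in WT 1 to WT 3. DKOITD 2 and WT 2 were the lowest, with 15 and 62 recovered reads, and the range within DKOITD spanned that of WT. A single value per gene includes exons outside the floxed part, so it does not measure how much of the allele was deleted. The 95% interval of the log2 difference between DKOITD and WT ran from -1.37 to 1.65 (adjusted p = 0.913 by limma), and without DKOITD 2 and WT 2 together the difference was 0.06. ITD libraries lay above all WT libraries, with a log2 difference of 1.14 ± 0.83 (SE; limma, adjusted p = 0.750), and DKOITD overlapped ITD.

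Ezh1 (chr11:101191115-101226463) measured 4.57, 4.04, 3.94 and 2.16 RPKM in DKOITD, with 3.15 and 2.89 RPKM in ITD, against 12.05, 17.9 and 3.95 RPKM in WT. WT 1 and WT 2 were high, while WT 3 lay within the DKOITD range. The log2 difference between DKOITD and WT was -1.22 ± 0.52 (SE; adjusted p = 0.138 by limma). That difference was -0.81 without WT 2, and without WT 3 it was -1.78 and passed (adjusted p = 0.0274 by limma). Between ITD and WT the groups did not overlap and the difference was -1.41 ± 0.62 (SE), with an adjusted p of 0.614 by limma.

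Ezh2 thus made up a varying share of the summed RPKM of the paralog pair. It was 79.8%, 27.6%, 67.1% and 82.5% in DKOITD, 80.4% and 86.8% in ITD, and 44.6%, 10.3% and 75.8% in WT. The means were 64.2% ± 25.4 (SD, n = 4) in DKOITD, 83.6% ± 4.51 (SD, n = 2) in ITD and 43.6% ± 32.8 (SD, n = 3) in WT. The ranges of DKOITD and WT overlapped, and Ezh1 exceeded Ezh2 in DKOITD 2, WT 1 and WT 2. Shares are given per library without a test.

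Suz12 (chr11:79993106-80034123), the scaffold, measured 3.43, 9.20, 5.39 and 7.14 RPKM in DKOITD, with 14.5 and 4.25 RPKM in ITD, against 19.1, 19.5 and 15.3 RPKM in WT. Every DKOITD library and both ITD libraries lay below every WT library. The log2 difference between DKOITD and WT was -1.44 ± 0.47 (SE), with an adjusted p of 0.0639 by limma, so Suz12 did not pass. It passed in none of the 19 alternatives (adjusted p from 0.0505 to 0.617, differences from -1.62 to -0.75). Between ITD and WT the difference was -1.06 ± 0.56 (SE; adjusted p = 0.681 by limma).

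Eed (chr7:89954654-89980983) measured 31.1, 30.5, 12.9 and 24.1 RPKM in DKOITD, with 34.4 and 14.3 RPKM in ITD, against 17.3, 10.2 and 17.3 RPKM in WT. DKOITD 1, 2 and 4 lay above all WT libraries and DKOITD 3 lay among them. The log2 difference of 0.65 ± 0.43 (SE) did not pass (adjusted p = 0.321 by limma). Suz12 and Eed, partners of the same core, thus had differences of opposite sign between DKOITD and WT, and their correlation over the 9 libraries was -0.19.

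Rbbp7 (chrX:162760402-162779092) and Rbbp4 (chr4:129307100-129335370) were the most abundant members, with medians over the 9 libraries of 49.2 and 25.5 RPKM. Rbbp7 measured 112, 49.2, 83.9 and 41.8 RPKM in DKOITD, with 63.9 and 26.99 RPKM in ITD, against 34.2, 25.5 and 66.4 RPKM in WT. Rbbp4 measured 31.0, 16.4, 25.5 and 21.7 RPKM in DKOITD, with 28.5 and 25.3 RPKM in ITD, against 14.1, 35.9 and 51.4 RPKM in WT. The groups overlapped for both, and neither passed between DKOITD and WT, with 0.76 ± 0.45 for Rbbp7 and -0.36 ± 0.43 for Rbbp4 on the log2 scale (SE; by limma, adjusted p = 0.276 and 0.599). Rbbp4 made up 26.0% ± 5.61 of the summed RPKM of the pair in DKOITD (SD, n = 4), 39.6% ± 12.4 in ITD (SD, n = 2) and 43.8% ± 14.6 in WT (SD, n = 3). The libraries overlapped, since WT 1 was at 29.2% and DKOITD 4 at 34.2%.

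Phf1 (chr17:26933052-26937908), a polycomb-like protein that binds methylated lysine 36 of histone H3, measured 0.375, 1.24, 2.59 and 3.65 RPKM in DKOITD, with 5.79 and 6.88 RPKM in ITD, against 13.3, 30.3 and 4.87 RPKM in WT. These were 11, 11, 68 and 133 recovered reads in DKOITD, 66 and 196 in ITD, and 605, 832 and 137 in WT. All 4 DKOITD libraries lay below every ITD and every WT library, and the ITD values lay between those of WT 3 and WT 1. Against WT, Phf1 fell by 2.37 ± 0.62 on the log2 scale (SE; adjusted p = 0.0291 by limma). Against ITD the log2 difference was -1.45 ± 0.70 (SE) and did not pass (adjusted p = 0.352 by limma), and ITD differed from WT by -0.92 ± 0.74 (SE; adjusted p = 0.776 by limma).

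The fall of Phf1 kept its sign in all 19 alternatives, from -2.99 to -1.57, and its call was lost in 8 of them. Without WT 2, its highest library, the difference was -1.77 (adjusted p = 0.0999 by limma), and without DKOITD 2 and WT 2 together it was -1.69 (adjusted p = 0.151 by limma). The call was also lost without DKOITD 1, DKOITD 2, DKOITD 3 or WT 1, at adjusted p from 0.0580 to 0.0856 by limma. DKOITD 1 to 3 belong to a lower series of label numbers than the other 6 libraries, and with a term for that series the difference was -1.57 (adjusted p = 0.604 by limma). Phf1 shares 1370 of its 3486 exon bases with Cuta on the opposite strand in GENCODE vM21, and the libraries do not mark strand. Cuta measured 135, 101, 115 and 122 RPKM in DKOITD, with 101 and 68.8 RPKM in ITD, against 111, 154 and 100.0 RPKM in WT, a log2 difference of -0.02 ± 0.27 between DKOITD and WT (SE; adjusted p = 0.966 by limma). How reads of the shared bases were counted is not stated.

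Mtf2 (chr5:108065674-108109004), the second polycomb-like member, which recruits PRC2 to CpG islands, measured 9.92, 14.8, 13.8 and 12.2 RPKM in DKOITD, with 5.46 and 12.1 RPKM in ITD, against 19.7, 15.9 and 10.5 RPKM in WT. The DKOITD and WT libraries overlapped, and limma gave a log2 difference of -0.23 ± 0.40 (SE) with an adjusted p of 0.730. The third paralog, Phf19, is not among the 10 genes and was low throughout, at 0 to 1.97 RPKM in DKOITD, with 0 and 0.137 RPKM in ITD, against 0 to 1.27 RPKM in WT. Phf1 accordingly held 3.65%, 6.88%, 14.7% and 21.1% of the summed RPKM of the 3 paralogs in DKOITD, 51.5% and 36.0% in ITD, and 40.3%, 63.9% and 29.6% in WT. Every DKOITD share lay below every share in ITD and WT, and Mtf2 held most of the rest.

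Aebp2 (chr6:140622663-140678472), a zinc finger subunit that stimulates the enzyme, measured 5.48, 6.16, 6.50 and 5.39 RPKM in DKOITD, with 2.96 and 3.65 RPKM in ITD, against 4.07, 0.949 and 1.11 RPKM in WT. The DKOITD libraries were all above the others and lay close together, at 5.88 ± 0.54 RPKM (SD, n = 4), against 2.04 ± 1.76 RPKM in WT (SD, n = 3). The log2 difference between DKOITD and WT was 1.32 ± 0.48 (SE) and did not pass (adjusted p = 0.0871 by limma). Without WT 1, the highest WT library, it was 1.76 and passed (adjusted p = 0.0392 by limma). Against ITD the difference was 0.68 ± 0.54 (SE; adjusted p = 0.590 by limma).

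Jarid2 (chr13:44729474-44921643), which guides the complex to chromatin, measured 8.08, 11.2, 9.80 and 7.46 RPKM in DKOITD, with 4.78 and 4.20 RPKM in ITD, against 13.1, 4.71 and 6.88 RPKM in WT. DKOITD lay above both ITD libraries, with a log2 difference of 0.87 ± 0.49 (SE; adjusted p = 0.424 by limma), and overlapped WT, with a difference of 0.22 ± 0.43 (SE; adjusted p = 0.758 by limma). Jarid2 and Aebp2 together held 56.8%, 49.1%, 48.1% and 42.6% of the summed RPKM of the 5 accessory genes Jarid2, Aebp2, Phf1, Mtf2 and Phf19 in DKOITD, 40.8% and 29.1% in ITD, and 34.3%, 10.7% and 32.7% in WT. All DKOITD shares lay above those of the other libraries, with the nearest pair at 42.6% in DKOITD 4 and 40.8% in ITD 1. Phf1 is among the 5 genes, so its low values in DKOITD raise this share by themselves. The separation is therefore not independent of the fall of Phf1, and how much of it came from Phf1 was not tested. Aebp2 alone held 39.4% ± 2.81 of the summed RPKM of Jarid2 and Aebp2 in DKOITD (SD, n = 4), 42.4% ± 5.81 in ITD (SD, n = 2) and 18.1% ± 5.02 in WT (SD, n = 3). Here the ITD libraries lay with DKOITD, and every WT library lay below both.

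**Figure D2:**
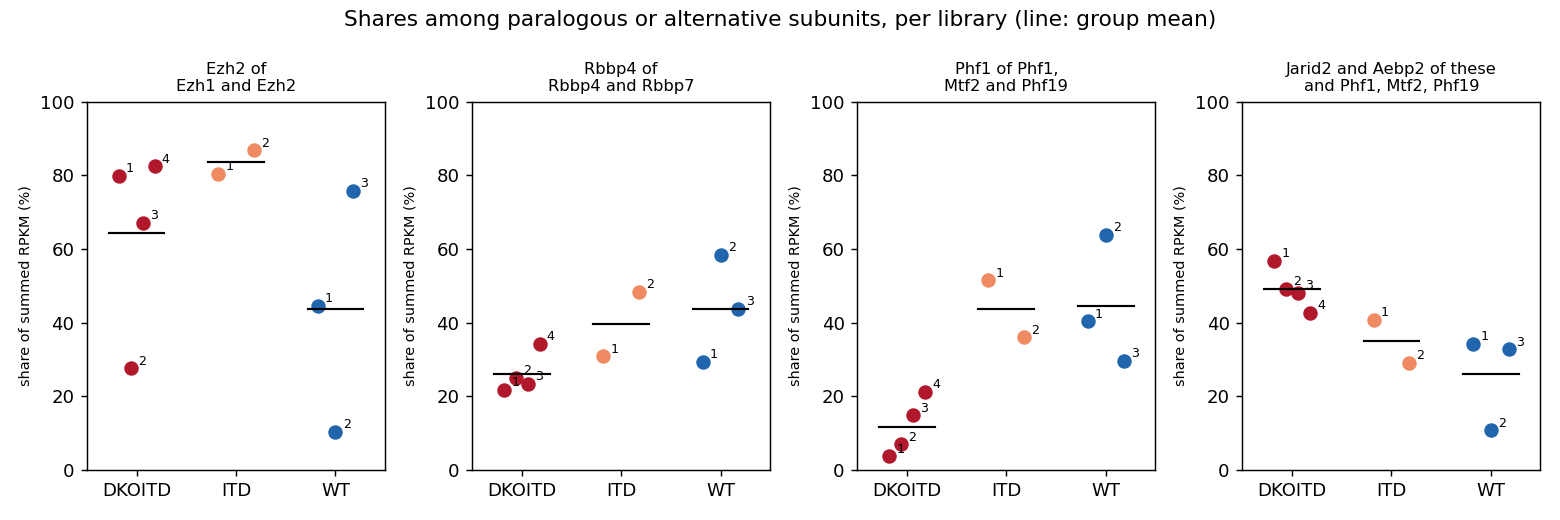
Share of summed RPKM (%) held by Ezh2 among Ezh1 and Ezh2, by Rbbp4 among Rbbp4 and Rbbp7, by Phf1 among the 3 polycomb-like genes, and by Jarid2 and Aebp2 among the 5 accessory genes; points are libraries, numbers are replicate numbers and lines are group means. The DKOITD libraries stand below the others in the Phf1 panel, at 3.65% to 21.1%, and above them in the Jarid2 and Aebp2 panel, at 42.6% to 56.8%, while the Ezh2 and Rbbp4 panels overlap. Phf1 enters both of the panels that separate, so they are not independent.

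Between DKOITD and ITD none of the 10 members passed, at an adjusted p under 0.05 (limma), and none had an unadjusted p under 0.05. In that comparison 23 of 10868 genes passed (0.212%). The groups did not overlap for Jarid2 and Aebp2 (higher in DKOITD) and Phf1 (lower), 3 of 10, against 31.3% of all genes. Between ITD and WT none of the members passed (limma), and Ezh1 alone had an unadjusted p under 0.05. The background there was 1 gene, Cd209a, or 0.00920% of those tested. The groups did not overlap for Ezh2 (higher in ITD), Ezh1 and Suz12 (both lower), 3 of 10, against 19.1% of all genes. DKOITD against WT and ITD against WT share the WT libraries, and DKOITD is shared between the comparisons with WT and ITD. Side by side, Suz12 differed by -1.44, -0.37 and -1.06 and Phf1 by -2.37, -1.45 and -0.92 in DKOITD against WT, DKOITD against ITD and ITD against WT.

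**Figure D3:**
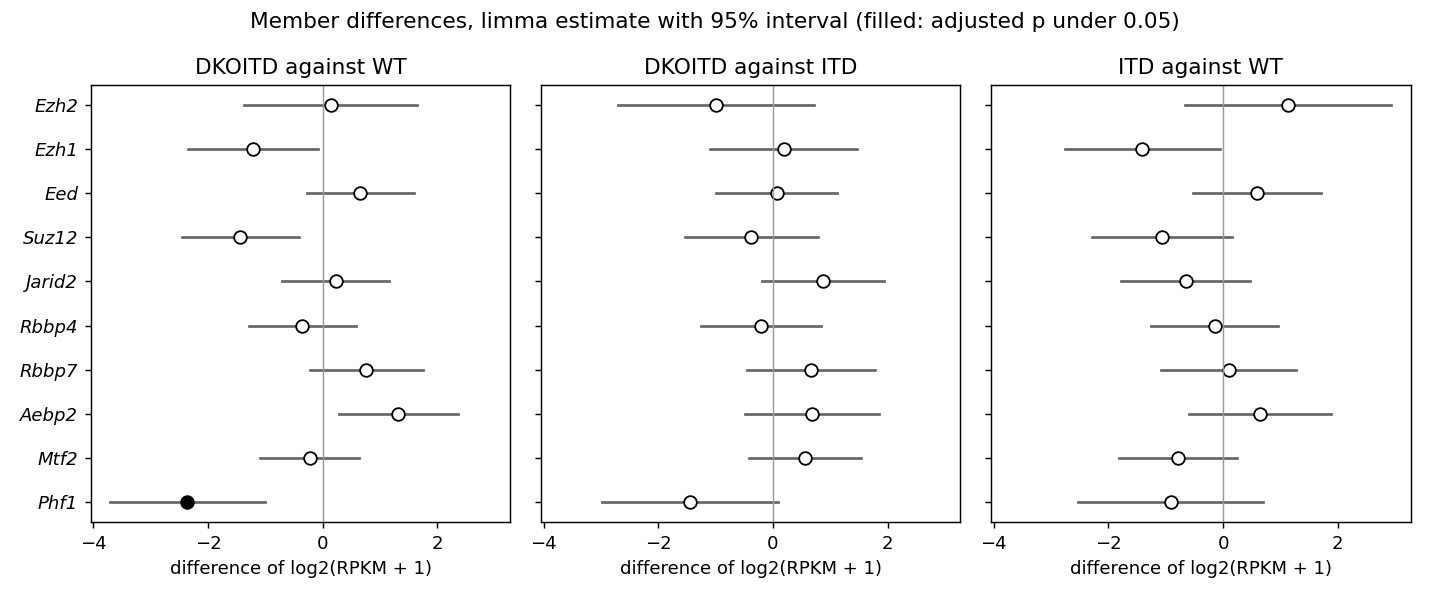
Log2 difference of each member in DKOITD against WT, DKOITD against ITD and ITD against WT, on the log2(RPKM + 1) scale; points are limma estimates, lines are 95% intervals, and a filled point has an adjusted p under 0.05. Phf1 in DKOITD against WT, at -2.37, is the only filled point among the 30.

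The differences also depended on how the libraries were scaled. When each column was scaled to its own recovered reads, the median log2 difference of all genes between DKOITD and WT was 0.74 in place of 0.17. Under that scaling Phf1 differed by -1.79 (adjusted p = 0.0478 by limma), and Aebp2 (1.86), Eed (1.37) and Rbbp7 (1.51) passed as higher (adjusted p = 0.0147, 0.0395 and 0.0439 by limma). Relative to the median of all genes, the difference of Phf1 was -2.54 as deposited and -2.53 per recovered read, and that of Aebp2 was 1.15 and 1.13. The corresponding values were 0.48 and 0.63 for Eed, 0.59 and 0.77 for Rbbp7, and -1.61 and -1.48 for Suz12. This scaling multiplies all values of a library by the same factor, so it moves all genes nearly alike. Near-equal values and kept signs relative to the median follow from that and carry no weight. The calls of Aebp2, Eed and Rbbp7 depended on the scaling.

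**Figure D4:**
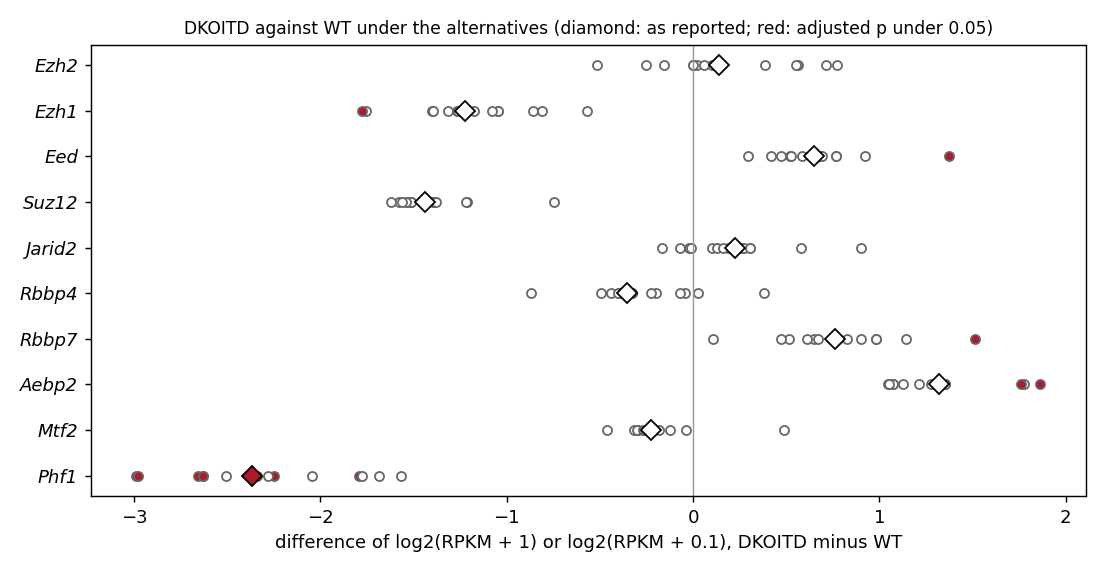
Log2 difference of each member between DKOITD and WT as reported (diamond) and under 19 alternatives (circles); red marks an adjusted p under 0.05, and the alternative with another pseudocount is on the log2(RPKM + 0.1) scale. Phf1 stays between -2.99 and -1.57, Suz12 between -1.62 and -0.75 and Aebp2 between 1.04 and 1.86, while the circles of Ezh2 lie on both sides of 0.

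The other genes of the polycomb system were read from lists in the same fit, between DKOITD and WT. Of 5 further accessory genes of PRC2, 3 were tested and none passed (limma), none with an unadjusted p under 0.05. Of the 3 demethylases that remove the mark, none passed, with 1 at an unadjusted p under 0.05. That gene, Kdm6b, measured 5.28, 14.9, 7.46 and 11.9 RPKM in DKOITD, with 22.0 and 26.0 RPKM in ITD, against 13.9, 22.6 and 22.5 RPKM in WT. Its paralog Kdm6a measured 3.62, 4.42, 6.30 and 5.13 RPKM in DKOITD, with 4.53 and 1.54 RPKM in ITD, against 6.78, 9.72 and 6.64 RPKM in WT, so every DKOITD library lay below every WT library without passing (log2 difference -0.57 ± 0.45, SE; adjusted p = 0.410 by limma).

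PRC1 is the companion complex that recognises the PRC2 mark and ubiquitinates histone H2A. Of 24 tested genes of PRC1 and of the H2A deubiquitinase, 1 fell and none rose. Among all tested genes 5.27% fell and 7.43% rose, so this count is not above the background. The gene that fell was Yaf2, a Rybp paralog found in the variant complexes, at 8.05, 12.1, 7.18 and 11.5 RPKM in DKOITD, with 22.2 and 23.3 RPKM in ITD, against 29.5, 35.1 and 29.5 RPKM in WT. All DKOITD libraries lay below both other groups, and Yaf2 fell by 1.62 ± 0.33 on the log2 scale against WT (SE; adjusted p = 0.0109 by limma). Its call was lost in 2 of 19 alternatives. Scaled per recovered read its difference was -0.90 and did not pass (adjusted p = 0.0590 by limma). The catalytic PRC1 subunit Rnf2 measured 14.8 to 17.9 RPKM in DKOITD, with 13.3 and 13.8 RPKM in ITD, against 11.8 and 15.4 RPKM in WT 1 and WT 3, and was listed at 0 in WT 2.

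Of 26 genes known as PRC2 targets in other tissues, 17 were above 0 in any library and 7 passed the filter on low values, 3 of which rose and none of which fell. They were the cyclin gene Ccnd2, the cell cycle inhibitor Cdkn1a and the developmental regulator Eya1, higher by 2.99 ± 0.52, 1.73 ± 0.46 and 1.48 ± 0.43 on the log2 scale (SE; by limma, adjusted p = 0.00535, 0.0309 and 0.0441). Ccnd2 measured 12.6, 7.39, 14.6 and 4.35 RPKM in DKOITD, with 0.222 and 1.11 RPKM in ITD, against 0.0185, 0.704 and 0.105 RPKM in WT. Because a gene that is low outside DKOITD could enter the test only through DKOITD, this count carries no weight by itself. The call of Cdkn1a was lost in 8 of 19 alternatives and that of Eya1 in 15 of 18. Over all 26 genes the summed RPKM was 29.4 to 79.4 in DKOITD, 6.98 and 20.7 in ITD and 6.68 to 14.2 in WT. In DKOITD 3, with the highest sum, most of it came from the called genes Cdkn1a (40.9 RPKM) and Ccnd2 (14.6 RPKM). Of the 26 genes, 14 to 17 were at 0 in DKOITD libraries, 20 to 21 in ITD and 16 to 19 in WT. The sum alone therefore does not show a list-wide rise. The mean log2(RPKM + 1) over all 26 genes, called genes included, was 0.577 to 0.86 in DKOITD, 0.19 and 0.396 in ITD and 0.17 to 0.286 in WT. Whether the list rose as a whole was not tested. Cdkn2b, a cell cycle inhibitor, measured 2.80, 1.77, 4.71 and 0 RPKM in DKOITD and was listed at 0 in every ITD and WT library, without passing (adjusted p = 0.0896 by limma). Its neighbour Cdkn2a was listed at 0 in all 9 libraries, and Hoxa9 stayed at or below 0.352 RPKM. The histone mark was not measured.

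Ezh2 and Phf1 followed different genes across the libraries. The 5 genes with the highest Pearson correlation to Ezh2 over 9 libraries, on the log2(RPKM + 1) scale, were Nup133 (0.94), Ube2l6 (0.93), Kntc1 (0.93), Zfp87 (0.93) and Eif2ak2 (0.91). For Phf1 they were Crlf2 (0.99), Pld3 (0.99), Hmha1 (0.98), Cmip (0.98) and Nhsl2 (0.98). The median correlation of Ezh2 with 43 proliferation genes was 0.34, beside 0.02 with all tested genes. The next highest lists were 4 B lineage genes (0.29) and 20 dendritic genes (0.20), and the lowest was 3 demethylases (-0.46). The summed level of the proliferation list was 2190, 1332, 1647 and 1543 RPKM in DKOITD, with 2740 and 1859 RPKM in ITD, against 1970, 1739 and 3369 RPKM in WT. DKOITD 2 and WT 2, where Ezh2 was lowest, had the lowest sums of their groups, but ITD 2, with the highest Ezh2 of all, had the lower sum of its group, and WT 2 lay above DKOITD 3 and DKOITD 4. Phf1 had its highest median correlations with 4 erythroid genes (0.75) and 21 neutrophil maturation genes (0.74), and its lowest with 20 dendritic genes (-0.73), 7 genes known as PRC2 targets (-0.63) and 4 B lineage genes (-0.60), beside -0.17 with all tested genes. Only genes past the filter entered, 7 of 26 targets, 4 of 13 B lineage, 4 of 11 erythroid and 20 of 22 dendritic genes. A gene low outside DKOITD could pass only through DKOITD, where Phf1 was lowest. The negative medians of targets and B lineage genes therefore carry no weight by themselves. The points of these correlations share depth, library and group, so they are descriptions of 9 libraries.

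Among all tested genes, 5.27% fell and 7.43% rose between DKOITD and WT. Of the proliferation list, 43 genes were tested and 4 fell between DKOITD and WT, namely Cenpf, E2f8, Ube2c and Top2a with log2 differences of -1.42, -1.41, -1.31 and -1.26, and none rose. These calls were lost in 16, 10, 7 and 11 of 19 alternatives. The summed levels of the list overlapped between DKOITD and WT, as did those of Ezh2.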

How the data were processed

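The deposited file is 1 table of RPKM per gene symbol made by the authors. Per the labels' protocols, 100 cells went from the sorter into lysis buffer for Smart-seq2, a full-length method without strand information. Per the submitters' processing notes, mm10, STAR 2.4.2a, SAMtools 1.1 and HTSeq 0.6.1p1 were used; neither the annotation nor the scaling of RPKM is stated. Whole reads were recovered from the deposited values for 15564 of 15566 genes above 0 (99.98% of values, tolerance 0.0001 reads, lengths of 20 to 30000 bp). The reads behind each RPKM column were 1.13 to 1.44 times the recovered reads in DKOITD, 0.853 to 0.919 times in ITD and 0.703 to 0.810 times in WT. Recovered reads serve for depth and for 1 alternative scaling, and no molecular identifiers separate PCR copies.

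Groups were taken from the sample titles. The 10868 genes that reached 1 RPKM in 2 or more libraries were fitted together over all 9 libraries as log2(RPKM + 1), without covariates, in limma 3.58.1 under R 4.3.3 (lmFit, then trended eBayes). Tests were two-sided, adjusted by Benjamini-Hochberg over all genes, with a threshold of 0.05, and differences on this scale understate changes of low genes. The fit was also run on simulated data with independent noise per gene and no shared library effects, so that run carries no weight for the calls here. Shares and correlations carry no test.

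The members and gene lists were chosen with earlier results of these data known. All members were named, and of every other list up to 4 genes past the threshold by size of change. Kdm6a, Kdm6b, Rnf2, Phf19, Cdkn2a, Cdkn2b and Hoxa9 were singled out after their values were seen. Alternatives were quantile normalization, scaling per recovered read, a pseudocount of 0.1, no filter, 1 RPKM in 4 or more libraries, the replicate number as a block, a term for the number series in the labels, library weights, each library left out, DKOITD 2 and WT 2 left out together, and only the compared groups in the fit. Gene positions are from GENCODE vM21 on mm10, and promoters are from RefSeq (GRCm38.p6), matched by symbol for all 10 members; members with several starts have a promoter for each.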

Additional observations from a re-analysis of the deposited data

How the results depend on the processing

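The number of genes past the threshold in DKOITD against WT was 1380. It was 2782 scaled per recovered read (2535 higher and 247 lower, against 807 and 573 as deposited), 733 with no filter, 4 with a term for the label number series, and 792 without DKOITD 2 and WT 2 together. Leaving out each library in turn gave 541 to 1962, with 611, 541 and 766 without DKOITD 1, DKOITD 3 and WT 2. In DKOITD against ITD the count was 23, and it was 42 with quantile normalization, 268 scaled per recovered read, 0 with the label series, 526 with library weights, 73 without DKOITD 2 and WT 2 together, 94 with only the compared groups, and 0 to 156 with each library left out. In ITD against WT it was 1, and it was 2 with a pseudocount of 0.1, 3 with no filter, and 0 to 47 with each library left out. The causes were not tested.

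Deviations from group means correlated between -0.04 and 0.07 for same-numbered libraries, and between -0.13 and 0.17 for differently numbered ones. Deviations within a small group must cancel, and the ITD libraries mirror each other. These values therefore do not settle whether replicate numbers pair the libraries. With the replicate number as a block, the counts were 884, 57 and 0 in DKOITD against WT, DKOITD against ITD and ITD against WT.

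Phf1 lost its call in DKOITD against WT with no filter (adjusted p = 0.0872 by limma), with the label series (-1.57; adjusted p = 0.604), and without DKOITD 1, DKOITD 2, DKOITD 3, WT 1 or WT 2 (adjusted p from 0.0580 to 0.0999), as well as without DKOITD 2 and WT 2 together. The labels begin with a number of unstated meaning (228 to 274 in DKOITD 1 to 3, 385 to 393 elsewhere), so with that term DKOITD 4 alone carries the comparison. Between DKOITD and WT, the sign of Ezh2 differed from the reported one in 5 of 19 alternatives, that of Jarid2 in 4, Rbbp4 in 2 and Mtf2 in 1, and that of the other 6 members in none. Only 15 recovered reads stand behind Ezh2 in DKOITD 2 and 11 behind Phf1 in each of DKOITD 1 and 2.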

Other observations

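Further PRC1 genes are given by library or range. Phc1, a polyhomeotic subunit, was at 0.834 to 2.42 RPKM in DKOITD, at 0.0541 and 1.78 RPKM in ITD and at 0 to 0.110 RPKM in WT, so that ITD 2 lay within the DKOITD range (against WT, log2 difference 1.27 ± 0.45, SE; adjusted p = 0.0830 by limma). Bmi1, a ring finger subunit needed by blood stem cells, measured 14.7, 15.6, 6.74 and 2.88 RPKM in DKOITD, with 4.80 and 1.97 RPKM in ITD, against 3.61, 2.56 and 1.08 RPKM in WT, a log2 difference of 1.54 ± 0.60 against WT (SE; adjusted p = 0.108 by limma). These genes were chosen after their values were seen.

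Y-linked transcripts (Ddx3y, Eif2s3y and Kdm5d) were above 0 in DKOITD 1, DKOITD 2, ITD 1 and WT 1 and at 0 in the other 5 libraries, so both patterns occurred in every group. Rbbp7 and Kdm6a lie on the X chromosome and Uty on the Y chromosome. Rbbp7 measured 112 and 49.2 RPKM in the DKOITD libraries with Y-linked transcripts and 83.9 and 41.8 RPKM in those without.

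In the other lists, between DKOITD and WT, 1 of 4 tested B lineage genes rose (Cd79b, log2 difference 2.43), 2 of 7 T lineage and early thymic genes rose (Cd7 and Il7r, 4.54 and 2.73) and 1 fell (Notch1, -1.94). The lists hold 13 and 15 genes, of which only those past the filter were tested. A gene low outside DKOITD could enter only through DKOITD, so these counts carry no weight by themselves. Among all tested genes 7.43% rose and 5.27% fell. The call of Cd7, whose groups overlapped, was lost in 10 of 19 alternatives, that of Notch1 in 9, and those of Cd79b and Il7r in 1 each. None of 4 erythroid genes passed (limma), with 2 at an unadjusted p under 0.05. Of 16 primary granule and promyelocyte genes, 1 rose (Cd34, 2.96) and 6 fell, among them Nkg7, Hk3 and Hdc at -2.96, -2.84 and -2.74 on the log2 scale, and their calls were lost in 6, 1 and 3 of 19 alternatives, that of Cd34 in 1.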
